A study of Homo sapiens with 12 samples.

Results

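The genes described here encode enzymes and regulators of cholesterol and fatty acid synthesis. They were chosen as the entries of the deposited expression table whose symbol is on a list of 31 names, and all 31 were found among the 23346 genes of the table. The list holds 7 genes of the mevalonate pathway, 9 of the sterol branch that follows it, 6 regulators and sterol carriers, and 9 genes of fatty acid synthesis and desaturation. The RNA-seq libraries were made from CFPAC-1 and SW1990, both established lines of human pancreatic adenocarcinoma whose cells differ among themselves in surface staining for GCTM-5, an antibody to a glycoprotein complex of duct-like epithelial cells. Cells of each line were sorted by flow cytometry into strongly stained and unstained cells, which gave GCTM-5 positive SW1990, GCTM-5 negative SW1990, GCTM-5 positive CFPAC-1 and GCTM-5 negative CFPAC-1 cells, with 3 samples in each of the 4 groups. The paper describes the same serum-containing medium for its cell lines, with insulin, transferrin and selenium added, and the labels differ from it on the medium. The labels name no drug and no genetic change. The negative cells are the comparison group within each line, and the question is how antigen bearing and antigen lacking cells of a line differ in transcript levels. The samples came from triplicate sorts and are not said to be separate cultures, so the p-values below measure the spread between these samples, which may be technical. In sorted bulk samples, fewer cells that express a gene and less of its RNA per cell cannot be told apart. The ductal epithelium markers *EPCAM*, *KRT7*, *KRT8*, *KRT18*, *KRT19* and *CDH1* were detected in all 4 groups. Levels are RPKM, reads divided by gene length and by library size, from libraries of 9969697 to 26159330 reads, and the members were covered by between 91 reads (*ME1*) and 253531 reads (*SCD*) in a sample.

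Cells make cholesterol from acetyl-CoA through the mevalonate pathway, which ends in farnesyl pyrophosphate, and through a sterol branch that closes squalene into lanosterol and trims it to cholesterol. Sterol and fatty acid synthesis are controlled by the SREBP transcription factors: when membrane sterol is low, *SCAP* escorts SREBP to the Golgi for cleavage, and when it is high, the INSIG proteins hold the complex in the endoplasmic reticulum. Fatty acids are built from cytosolic acetyl-CoA by acetyl-CoA carboxylase and fatty acid synthase with NADPH from malic enzyme and other sources, and are then elongated and desaturated. Tumour cells, those of the pancreas included, are known to draw on both pathways for membrane growth.

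The SREBP proteins bind a sterol regulatory element next to boxes for NF-Y and Sp1, and the letters of these elements were searched in promoter windows of RefSeq (GRCh38.p14, 250 bases before to 50 bases after the start site). A window was found for 27 of the 31 members, and the members without a match were *ACAT2*, *FDFT1*, *SQLE* and *FASN*. The 250 bases before the start site are shown for *SREBF2*, the member with a match to the sterol regulatory element, for *MVK*, which rose in both lines and holds many NF-Y boxes, and for *SCD* and *ME1*, the 2 members whose level changed over 2-fold in a line. Each is written 5′ to 3′ on the strand of its gene, and capitals mark TCACNCCAC and CCAAT on either strand. The *SREBF2* sequence lies on the plus strand at chr22:41832855-41833104, that of *MVK* on the plus strand at chr12:109573544-109573793, that of *SCD* on the plus strand at chr10:100346983-100347232 and that of *ME1* on the minus strand at chr6:83431052-83431301.
SREBF2: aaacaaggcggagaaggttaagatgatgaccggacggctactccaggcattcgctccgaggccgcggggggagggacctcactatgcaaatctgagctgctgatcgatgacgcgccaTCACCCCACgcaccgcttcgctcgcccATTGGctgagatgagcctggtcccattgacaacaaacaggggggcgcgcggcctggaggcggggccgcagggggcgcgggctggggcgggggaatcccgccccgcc
MVK: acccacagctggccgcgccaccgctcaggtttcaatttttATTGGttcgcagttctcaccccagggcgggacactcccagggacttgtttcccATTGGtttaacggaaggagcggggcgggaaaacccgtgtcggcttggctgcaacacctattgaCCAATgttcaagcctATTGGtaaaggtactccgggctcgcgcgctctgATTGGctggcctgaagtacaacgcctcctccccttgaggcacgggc
SCD: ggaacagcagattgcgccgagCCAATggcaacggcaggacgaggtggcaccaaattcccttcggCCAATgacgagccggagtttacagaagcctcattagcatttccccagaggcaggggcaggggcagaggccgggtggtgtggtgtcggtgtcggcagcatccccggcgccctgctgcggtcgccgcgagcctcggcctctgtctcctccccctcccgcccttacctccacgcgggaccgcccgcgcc
ME1: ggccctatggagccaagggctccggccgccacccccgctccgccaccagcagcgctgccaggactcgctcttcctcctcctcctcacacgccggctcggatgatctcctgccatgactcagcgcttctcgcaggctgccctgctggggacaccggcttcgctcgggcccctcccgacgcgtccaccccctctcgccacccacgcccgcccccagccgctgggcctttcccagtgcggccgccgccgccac

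In *SREBF2*, the element TCACNCCAC began 133 bases before the start site and a CCAAT box 106 bases before it. *SREBF2* was the only member with TCACNCCAC among the 27 windows (3.7%), against 1.15% of the 27305 promoters of the reference. The NF-Y box CCAAT was in 16 member windows (59.3%), against 35.7% of all promoters and 36.24% of the 10612 promoters of genes fitted here. *MVK* held 5 of these boxes, from 210 to 46 bases before the start site, *SCD* held 2, and *ME1* held none. *NSDHL*, which passed the test below in neither line, also held 5, and *ACACA* and *ELOVL6*, which rose in both lines, held none. The Sp1 box GGGCGG was in 25 member windows (92.6%), against 44.59% of all promoters and 67.6% of those of fitted genes, and the E-box CACGTG in 3 (11.1%), against 7.43% and 9.85%. All motifs were searched on both strands. None of the 4 contains another, and the element and the box of *SREBF2* do not overlap. A match is a description of these letters and not a bound site.

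**Figure D1:**
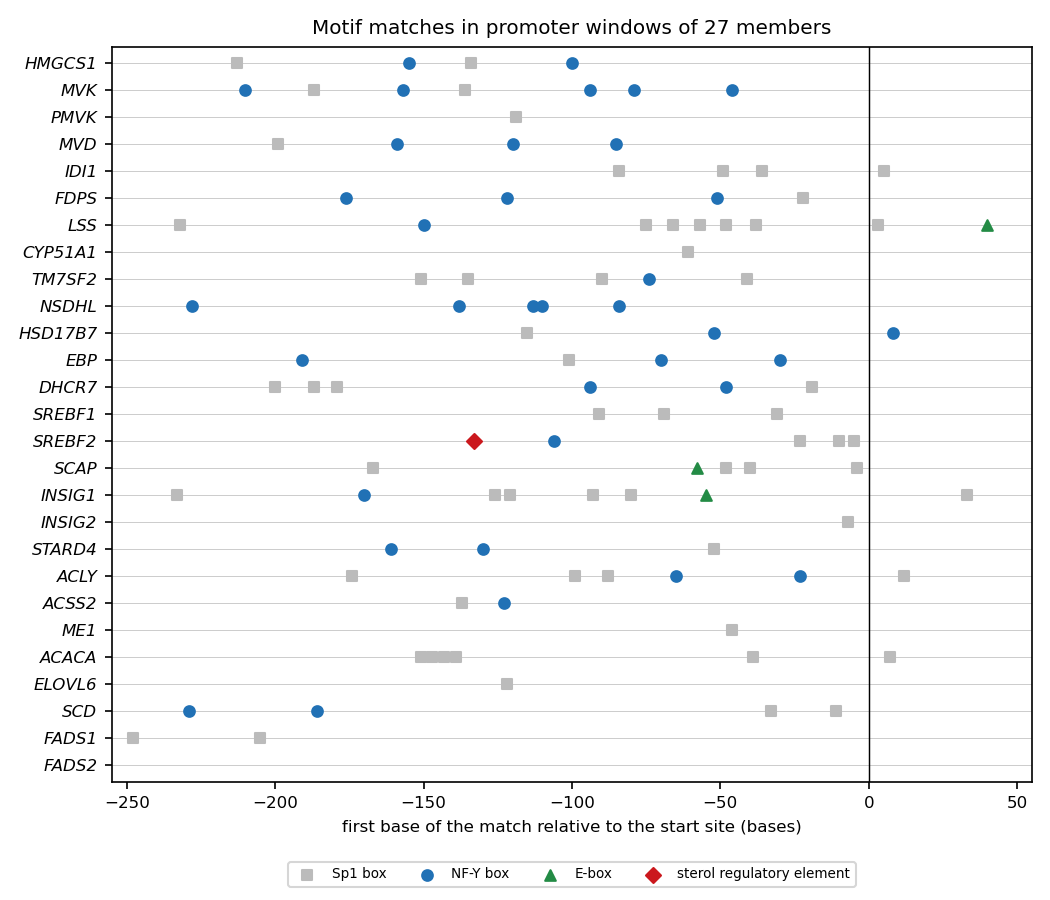
Positions of motif matches on either strand in the RefSeq promoter windows of 27 members, with the first base of each match relative to the start site on the horizontal axis (bases) and 1 line per gene. The 1 sterol regulatory element lies in *SREBF2* at 133 bases before the start site, and NF-Y boxes lie in 16 of the 27 windows.

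*SCD*, the desaturase that makes oleate from stearate, was the most abundant member in every group when levels were compared as RPKM. It was at 336 ± 91.9 RPKM in the 3 negative SW1990 samples and 349.8 ± 90.8 RPKM in the 3 positive ones. In CFPAC-1, it reached 2031 ± 189.7 RPKM in the 3 negative samples and 955 ± 393 RPKM in the 3 positive ones (mean ± SD, n = 3). It made up 52.3% ± 2.14 of the summed RPKM of the members in negative CFPAC-1 cells (SD, n = 3) and 30.1% ± 6.46 in positive CFPAC-1 cells, against 18.9% ± 1.32 and 16.1% ± 1.02 in negative and positive SW1990 cells. The least abundant member was *MVK* in negative SW1990 cells (mean 3.88 RPKM) and *ME1* in the other groups (means of 2.76 RPKM in positive SW1990, 1.55 RPKM in negative CFPAC-1 and 6.10 RPKM in positive CFPAC-1 cells). The median member lay at 38.96 RPKM in the negative SW1990 samples and 51.1 RPKM in the positive ones and at 47.1 RPKM in the negative CFPAC-1 samples and 46.2 RPKM in the positive ones. Summed over all 31 members, levels were 1762 ± 364 RPKM in the negative and 2154 ± 443 RPKM in the positive samples of SW1990 and 3879 ± 213 RPKM in the negative and 3092 ± 634 RPKM in the positive samples of CFPAC-1 (SD, n = 3), and within each line the sums of the positive and negative samples overlapped. Without *SCD*, the sums of the single samples were 1142, 1449 and 1685 in negative SW1990, 1399, 2035 and 1978 in positive SW1990, 1819, 1888 and 1836 in negative CFPAC-1 and 2286, 2318 and 1805 in positive CFPAC-1 cells.

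**Figure D2:**
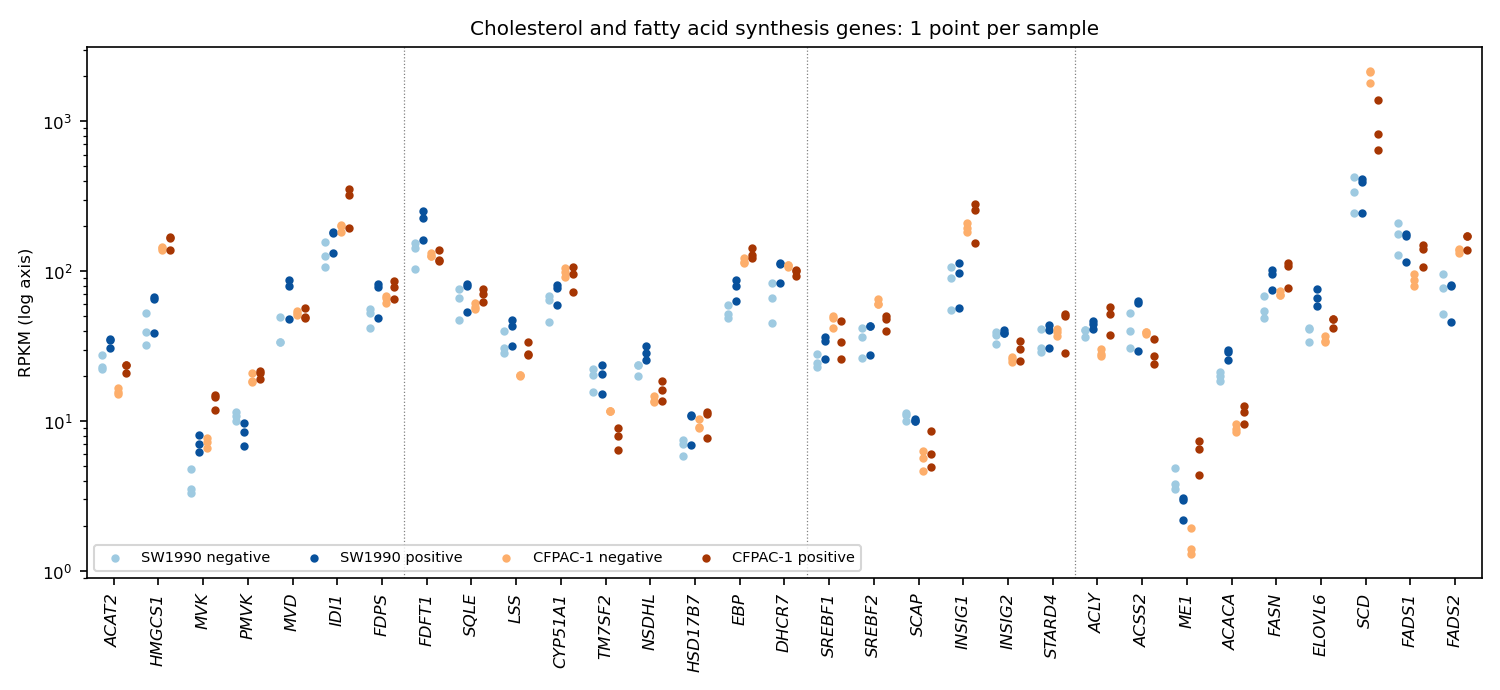
Level of each member in RPKM (log axis), with 1 point per sample, 4 colours for the 4 groups and dotted lines between the mevalonate, sterol, regulator and fatty acid genes. *SCD* is the highest gene in each group and is highest of all in the 3 negative CFPAC-1 samples, at 1813 to 2160 RPKM.

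Many members were low in the same samples. SW1990 replicate 1 was the lowest of its group for 27 of the 31 members among negative samples and for 28 of 31 among positive samples, whereas it was the lowest of its group for 33.34% and 42.29% of all 16236 genes fitted. The median member lay 0.20 (log2) below its group mean in negative SW1990 replicate 1 and 0.30 below it in positive replicate 1. Negative SW1990 replicate 3 was the highest of its group for 25 members (37.61% of all genes). In CFPAC-1, positive replicate 3, the library with fewest reads, was the lowest of its group for 21 of 31 members (41.73% of all genes) with a median of 0.21 below the group mean. The lowest departures were those of *ACSS2* (-0.71) and *INSIG1* (-0.59), both in positive SW1990 replicate 1. Negative CFPAC-1 samples were close together, with a median coefficient of variation over the members of 5.18%, against 17.86% and 17.59% in negative and positive SW1990 cells and 14.86% in positive CFPAC-1 cells. The SW1990 replicate 1 libraries held 20551858 reads in negative and 19399593 reads in positive cells, against 9969697 in positive CFPAC-1 replicate 3, and the part of depth in these low values was not tested.

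**Figure D3:**
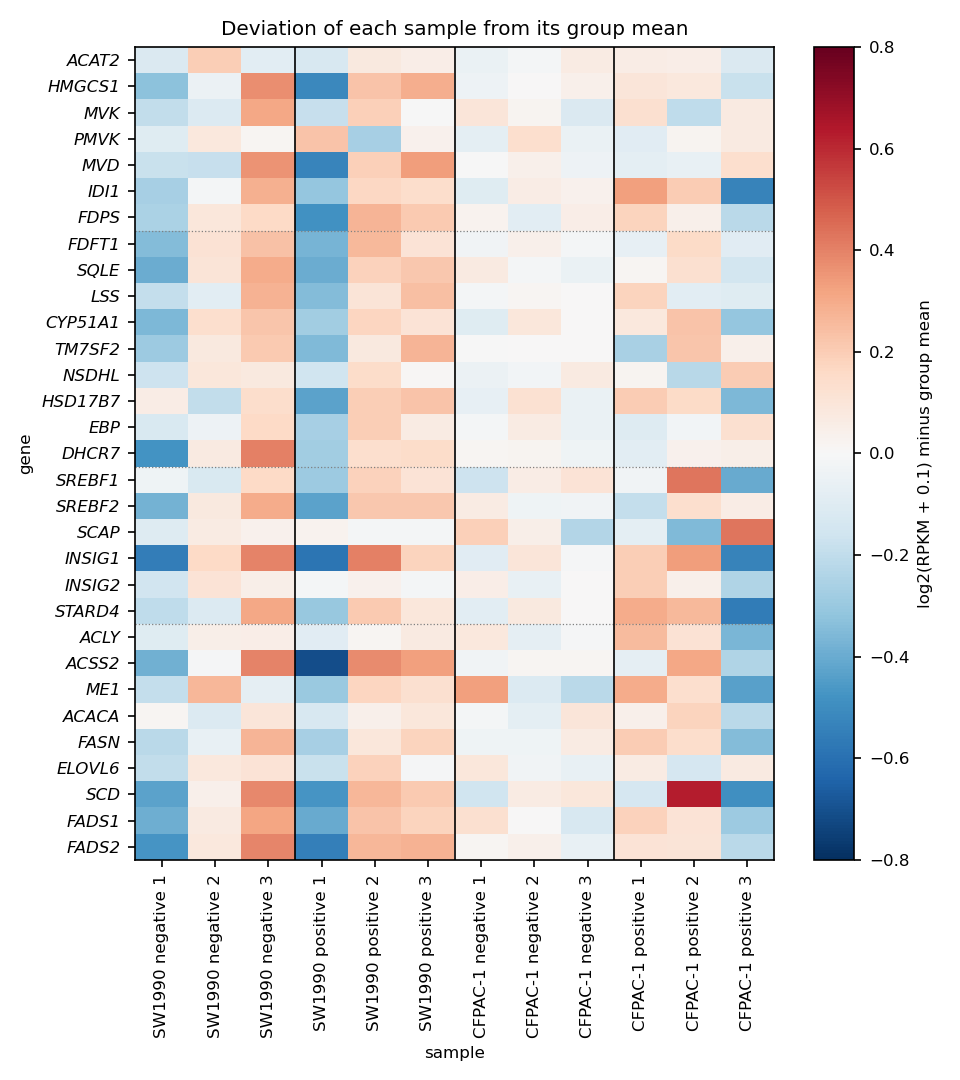
Deviation of each sample from its group mean, in log2(RPKM + 0.1), with members as rows and the 12 samples as columns. Blue columns mark SW1990 replicate 1 in both populations and positive CFPAC-1 replicate 3, which lie below their group mean for most members.

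Of the 31 members, all of which were fitted, 9 rose and 1 fell in GCTM-5 positive SW1990 cells, and 9 rose and 2 fell in GCTM-5 positive CFPAC-1 cells. Over all genes fitted, 11.3% were higher and 16.9% lower in positive SW1990 cells, and 22.3% were higher and 14.2% lower in positive CFPAC-1 cells, at the same adjusted p under 0.05 (limma on log2(RPKM + 0.1), Benjamini-Hochberg over 16236 genes, 2-sided). The share of members higher was thus 29.03% against 11.3% in SW1990 and 29.03% against 22.3% in CFPAC-1. *ACAT2*, *MVK*, *ACACA*, *FASN* and *ELOVL6* rose in both lines, *PMVK*, *MVD*, *FDFT1*, *EBP* and *DHCR7* passed the test in SW1990, *LSS*, *TM7SF2*, *ACLY*, *ME1*, *SCD* and *FADS1* passed it in CFPAC-1, and 15 members passed it in neither. Changes over 2-fold were few. No member moved over 2-fold in SW1990, where the median log2 fold change of the members was 0.29 (all genes -0.04), and in CFPAC-1, where it was 0.19 (all genes 0.05), *ME1* and *SCD* did so. The fitted change was above 0 for 26 of 31 members in SW1990 and for 22 of 31 in CFPAC-1. The share of all genes above 0 was not counted, and the median of all genes in CFPAC-1 was -0.05 with centred samples. Members share the deviations of single samples, so these signs are not independent. With 3 samples against 3, an exact permutation test cannot give a p below 0.1 for a single gene. Fold changes are on the log2(RPKM + 0.1) scale, which understates those of low genes.

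The counts depended on single libraries. Without positive SW1990 replicate 1, 15 members were higher in positive SW1990 cells, and the 9 were among them. In CFPAC-1, the count of higher members was 4 without positive replicate 1 and 5 without negative replicate 2 or negative replicate 3. The shares of all genes called in these fits were not counted, so the shifts are not shown to be particular to the members. With each sample centred on its median, which moved the median of all genes in CFPAC-1 from 0.05 to -0.05, 5 of the 9 were still called. *ACACA*, *FASN* and *ELOVL6*, which rose in both lines above, were not among them, nor with quantile normalization, so that *ACAT2* and *MVK* alone of the 5 were called in both lines under these scalings. With centred samples the share of all calls that were higher in positive CFPAC-1 cells went from 61.09% to 47.77%.

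**Figure D4:**
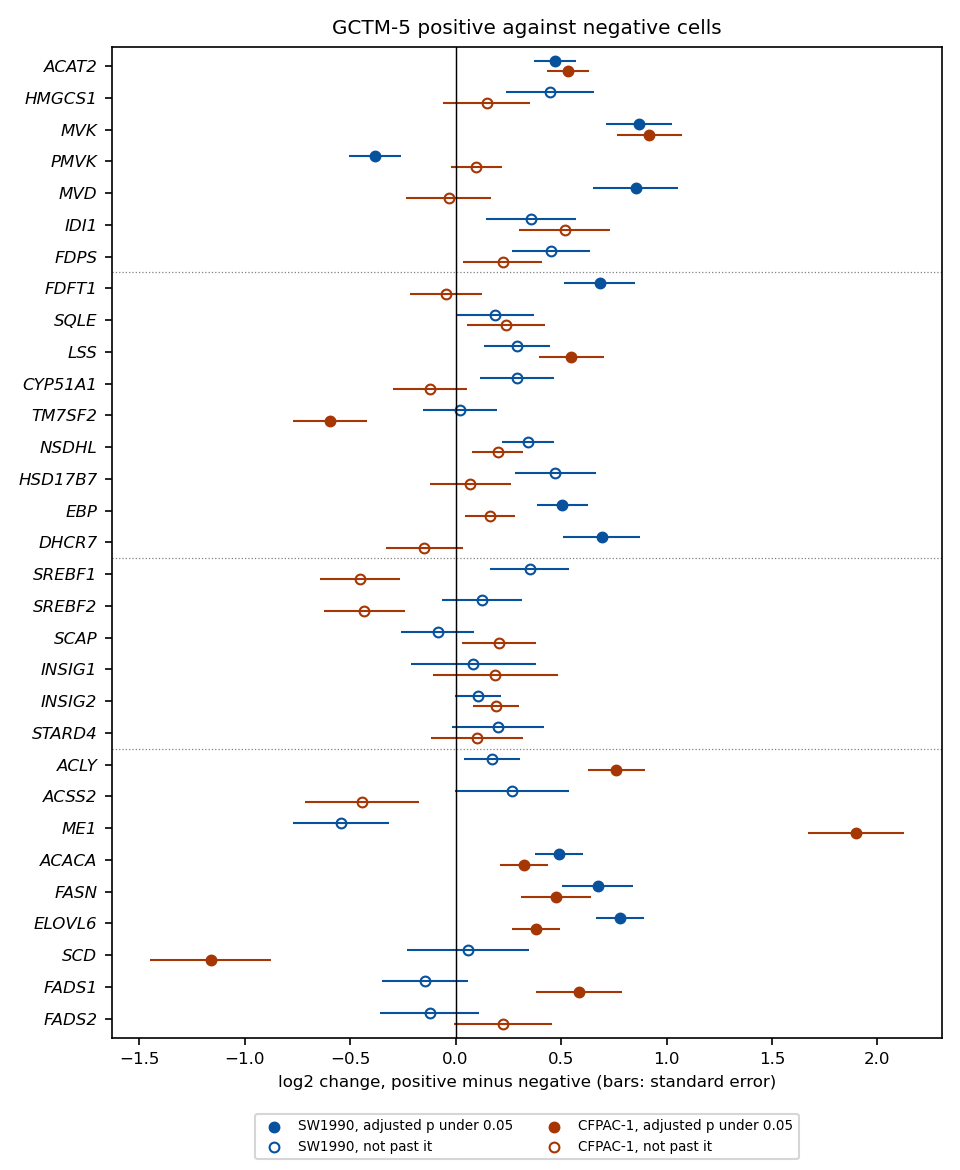
Fitted log2 fold change of each member between GCTM-5 positive and negative cells, with SW1990 in blue, CFPAC-1 in orange-brown and bars for the standard error. Filled points have an adjusted p under 0.05 (limma): 10 of 31 in SW1990 and 11 of 31 in CFPAC-1, with *ME1* farthest to the right and *SCD* farthest to the left in CFPAC-1.

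Markers of cell state moved with the sort in the same samples. Among all genes fitted, 11.3% rose and 16.9% fell in positive SW1990 cells, and 22.3% rose and 14.2% fell in positive CFPAC-1 cells. Of 6 ductal epithelium markers, 5 rose in positive SW1990 cells, where their summed level went from 1595 to 1942 RPKM in negative samples to 4360 to 4841 RPKM in positive samples, and 3 rose in positive CFPAC-1 cells (5411 to 6173 and 6676 to 8162 RPKM). All 5 mesenchymal markers fell in positive SW1990 cells (1289 to 1451 against 201.1 to 371.9 RPKM) and 4 of 5 in positive CFPAC-1 cells (551.4 to 752 against 420.3 to 589.4 RPKM). Of 8 proliferation genes, 2 rose in positive SW1990 cells (365 to 478.6 against 474.9 to 544 RPKM), and 7 rose in positive CFPAC-1 cells (242.7 to 276 against 507 to 676.4 RPKM). Of 3 fitted stromal fibroblast markers, all fell in positive SW1990 cells and none was called in CFPAC-1. The 7 of the list summed to 12.8 to 22.7 RPKM in negative and 3.9 to 4.86 RPKM in positive SW1990 cells and to at most 2.39 RPKM in CFPAC-1, with COL3A1 and DCN listed at 0 in 3 of the 4 groups. Adipocyte and hepatocyte markers, from cell types rich in lipid synthesis, summed to at most 1.84 and 0.0815 RPKM, and ADIPOQ was listed at 0 in all groups. Of the adipocyte markers 2 were fitted, and both fell in positive CFPAC-1 cells. The 1 leukocyte marker fitted, *CD14*, fell in both lines, and 1 of 3 endothelial markers fell in SW1990. Leukocyte markers summed to at most 9.57 RPKM, in negative CFPAC-1 cells, and endothelial markers to at most 18.5 RPKM, in negative SW1990 cells. The part of these marker changes in the values of the lipid genes was not tested.

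Among the 7 mevalonate pathway genes, 3 rose and 1 fell in positive SW1990 cells and 2 rose in positive CFPAC-1 cells, with medians of 0.45 and 0.22. These are 42.86% higher and 14.29% lower in SW1990 (all genes 11.3% and 16.9%). In CFPAC-1 they are 28.57% higher and 0% lower (all genes 22.3% and 14.2%). *MVK*, the kinase that phosphorylates mevalonate (chromosome 12, 110011060 to 110035930 of GRCh37), was at 3.33, 3.54 and 4.77 RPKM in the 3 negative SW1990 samples and 6.22, 8.10 and 7.08 RPKM in the 3 positive ones. The CFPAC-1 levels were 7.68, 7.28 and 6.63 RPKM in the 3 negative samples and 14.96, 11.9 and 14.4 RPKM in the 3 positive ones. Every positive sample lay above every negative sample of its line. The log2 fold changes of *MVK* were 0.87 (SE 0.15, adjusted p = 0.00116) in SW1990 and 0.92 (SE 0.15, adjusted p = 0.000932) in CFPAC-1, the largest of the group in each line. The exons of *MVK* overlap those of *MMAB* on the opposite strand, whose log2 fold changes were 0.41 (adjusted p = 0.145) and 0.49 (adjusted p = 0.0683). *ACAT2*, the cytosolic thiolase that joins acetyl-CoA units (chromosome 6, 160183077 to 160200144), was at 22.4, 27.8 and 22.9 RPKM in the 3 negative SW1990 samples and 30.7, 35.5 and 34.9 RPKM in the 3 positive ones. In CFPAC-1, it reached 15.2, 15.6 and 16.5 RPKM in the 3 negative samples and 23.8, 23.7 and 21.1 RPKM in the 3 positive ones. The groups of *ACAT2* did not overlap in either line. Its log2 fold changes were 0.47 (SE 0.10, adjusted p = 0.00409) in SW1990 and 0.53 (SE 0.10, adjusted p = 0.00190) in CFPAC-1. *ACAT2* shares exon sequence with *TCP1* and *SOD2* on the opposite strand, and whether the counting used strand is not given in the sources used here. *TCP1* had log2 fold changes of 0.29 (adjusted p = 0.0561) in SW1990 and 0.54 (adjusted p = 0.00194) in CFPAC-1, and *SOD2* of -1.25 (adjusted p = 0.000966) and -0.56 (adjusted p = 0.0596). The calls of *MVK* and *ACAT2* held in each line in all 22 alternatives judged by the adjusted p, which leave out the requirement of over 2-fold that neither gene meets.

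*MVD*, the decarboxylase that yields isopentenyl pyrophosphate, was at 33.9, 33.8 and 49.2 RPKM in the 3 negative SW1990 samples and 48.1, 79.3 and 87.3 RPKM in the 3 positive ones, so that positive replicate 1 lay within the range of the negative samples. Its log2 fold change in SW1990 was 0.85 (SE 0.20, adjusted p = 0.00714). In CFPAC-1, *MVD* was at 52.8 ± 1.57 RPKM in the 3 negative samples and 51.7 ± 4.28 RPKM in the 3 positive ones, and its log2 fold change was -0.03 (adjusted p = 0.922) with overlapping groups. *PMVK*, the next kinase after *MVK*, was the single member to fall in SW1990. It was at 10.04, 11.4 and 10.9 RPKM in the 3 negative SW1990 samples and 9.68, 6.85 and 8.43 RPKM in the 3 positive ones, which gave a log2 change of -0.38 (SE 0.12, adjusted p = 0.0362). The groups did not overlap, but the call was borderline, since without negative SW1990 replicate 2 or 3, positive SW1990 replicate 2 or 3 or negative CFPAC-1 replicate 3 its adjusted p ran from 0.0512 to 0.136, and its log2 fold change was -0.25 without positive SW1990 replicate 2. In CFPAC-1, *PMVK* had 19.2 ± 1.58 RPKM in the 3 negative samples and 20.5 ± 1.19 RPKM in the 3 positive ones (SD, n = 3 each). The remaining mevalonate genes passed the test in neither line. *HMGCS1*, which makes HMG-CoA, was at 41.4 ± 10.3 RPKM in the 3 negative SW1990 samples and 57.1 ± 15.97 RPKM in the 3 positive ones, which gave a log2 change of 0.45 (adjusted p = 0.135), and at 142 ± 3.99 and 158 ± 16.6 RPKM in CFPAC-1, which is a log2 change of 0.15 (adjusted p = 0.619). *IDI1*, the isopentenyl isomerase, had log2 fold changes of 0.36 (adjusted p = 0.251) in SW1990 and 0.52 (adjusted p = 0.0786) in CFPAC-1, where its positive samples were at 351, 322 and 193 RPKM and replicate 3 lay among the negative samples. *FDPS*, farnesyl pyrophosphate synthase, had log2 fold changes of 0.45 (adjusted p = 0.0909) and 0.22 (adjusted p = 0.376). The annotation holds 8 pseudogenes named after *FDPS* and 3 named after *IDI1*, with which reads could be shared.

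Of the 9 sterol branch genes, *FDFT1*, *EBP* and *DHCR7* rose in positive SW1990 cells and the other 6 did not pass the test. The median log2 fold change was 0.35 (all genes -0.04), and all 9 fitted changes, which share the deviations of single samples, were above 0. In positive CFPAC-1 cells, *LSS* rose, *TM7SF2* fell and the other 7 did not pass the test, with a median of 0.07. The shares in SW1990 were 33.33% higher and 0% lower (all genes 11.3% and 16.9%). Those in CFPAC-1, 11.11% higher and 11.11% lower, lay below those of all genes (22.3% and 14.2%). *FDFT1*, squalene synthase and the first enzyme committed to sterols, was at 103, 142 and 154 RPKM in the 3 negative SW1990 samples and 162, 252 and 227 RPKM in the 3 positive ones. All positive samples lay above all negative samples, and the log2 fold change was 0.68 (SE 0.17, adjusted p = 0.0102). *DHCR7*, the reductase of the last step to cholesterol, was at 45.1, 66.3 and 83.3 RPKM in the 3 negative SW1990 samples and 83.9, 112 and 113 RPKM in the 3 positive ones, where positive replicate 1 lay just above negative replicate 3. Its log2 fold change was 0.69 (SE 0.18, adjusted p = 0.0136). *EBP*, a sterol isomerase, was at 48.95, 51.95 and 59.6 RPKM in the 3 negative SW1990 samples and 63.1, 86.9 and 79.4 RPKM in the 3 positive ones, also without overlap, which is a log2 change of 0.51 (SE 0.12, adjusted p = 0.00733). In CFPAC-1, *FDFT1*, *DHCR7* and *EBP* had log2 fold changes of -0.04 (adjusted p = 0.870), -0.15 (adjusted p = 0.558) and 0.16 (adjusted p = 0.310). With the SW1990 samples fitted alone, the adjusted p was 0.0800 for *FDFT1*, 0.101 for *DHCR7* and 0.0742 for *MVD*, and without positive SW1990 replicate 3 it was 0.0564 for *DHCR7*, whereas *EBP*, below 2-fold like the others, held in all 22 alternatives judged by the adjusted p. Without negative SW1990 replicate 1, the log2 fold change of *DHCR7* in SW1990 was 0.45.

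*LSS*, which cyclises squalene epoxide to lanosterol, was at 19.98, 20.4 and 20.2 RPKM in the 3 negative CFPAC-1 samples and 33.5, 27.98 and 27.7 RPKM in the 3 positive ones, with no overlap and a log2 change of 0.55 (SE 0.16, adjusted p = 0.0167). The adjusted p of *LSS* was 0.0670 without positive CFPAC-1 replicate 1. *TM7SF2*, a sterol reductase, moved the other way. It was at 11.6, 11.7 and 11.6 RPKM in the 3 negative CFPAC-1 samples and 6.39, 8.97 and 7.91 RPKM in the 3 positive ones, which gave a log2 change of -0.59 (SE 0.18, adjusted p = 0.0207). The groups did not overlap, and without negative CFPAC-1 replicate 1, 2 or 3 or positive CFPAC-1 replicate 1 its adjusted p ran from 0.0514 to 0.0845. The exons of *TM7SF2* overlap those of VPS51 on the same strand, a gene not analysed here. In SW1990, *LSS* had 33.1 ± 5.86 and 40.7 ± 8.27 RPKM in negative and positive cells, and *TM7SF2* had 19.4 ± 3.35 and 19.8 ± 4.25 RPKM (SD, n = 3 each), with log2 fold changes of 0.29 (adjusted p = 0.196) and 0.02 (adjusted p = 0.955). The other 4 sterol genes passed the test in neither line. *SQLE*, squalene epoxidase, had log2 fold changes of 0.19 (adjusted p = 0.503) in SW1990 and 0.24 (adjusted p = 0.338) in CFPAC-1, where its positive samples lay above the negative ones. *CYP51A1*, lanosterol demethylase, had values of 0.29 (adjusted p = 0.253) and -0.12 (adjusted p = 0.634), *NSDHL*, a dehydrogenase of sterol demethylation, 0.34 (adjusted p = 0.0544) and 0.20 (adjusted p = 0.225), and *HSD17B7*, a keto-sterol reductase, 0.47 (adjusted p = 0.0916) and 0.07 (adjusted p = 0.812), each in SW1990 and CFPAC-1 in turn. *NSDHL* came closest to the threshold, with positive SW1990 samples at 25.5, 31.6 and 28.6 RPKM, all above the negative samples at 19.9, 23.8 and 23.6 RPKM. *CYP51A1* overlaps *AKAP9* on the opposite strand and has 3 annotated pseudogenes, and *HSD17B7* has 2.

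Over all genes fitted, limma called 11.3% higher and 16.9% lower in SW1990, and 22.3% and 14.2% in CFPAC-1. The 6 regulators and carriers gave 0 calls in SW1990 and 0 calls in CFPAC-1 (limma), and 0 by voom in each. At an unadjusted p under 0.05 there were 0 in SW1990 and 2 in CFPAC-1, *SREBF1* and *SREBF2*, which encode the SREBP proteins. *SREBF2* was at 64.95, 60.5 and 60.7 RPKM in the 3 negative CFPAC-1 samples and 40.2, 50.5 and 47.8 RPKM in the 3 positive ones. All positive CFPAC-1 samples lay below all negative ones, with a log2 change of -0.43 (SE 0.19, adjusted p = 0.0956) and a 95% interval of -0.85 to -0.02. In SW1990, *SREBF2* was at 26.3, 36.1 and 41.98 RPKM in the 3 negative samples and 27.6, 43.2 and 43.2 RPKM in the 3 positive ones, which gave a log2 change of 0.12 (SE 0.19, adjusted p = 0.686). *SREBF1* was at 41.8, 48.9 and 50.6 RPKM in the 3 negative CFPAC-1 samples and 33.6, 46.2 and 25.9 RPKM in the 3 positive ones, where positive replicate 2 lay within the negative range, and its log2 fold change was -0.45 (SE 0.19, adjusted p = 0.0792). In SW1990 it was at 24.4, 22.97 and 27.9 RPKM in the 3 negative samples and 26.1, 36.3 and 34.4 RPKM in the 3 positive ones, which gave a log2 change of 0.35 (SE 0.19, adjusted p = 0.198). *RAI1*, whose exons overlap those of *SREBF1* on the opposite strand, had log2 fold changes of 0.31 (adjusted p = 0.0710) in SW1990 and -0.55 (adjusted p = 0.00371) in CFPAC-1.

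*INSIG1*, itself an SREBP target that retains the complex in the endoplasmic reticulum, was at 55.2, 90.7 and 107 RPKM in the 3 negative SW1990 samples and 57.2, 114 and 97.5 RPKM in the 3 positive ones. The CFPAC-1 levels were 184, 210.1 and 195 RPKM in the 3 negative samples and 257, 282 and 154 RPKM in the 3 positive ones. Replicate 1 in SW1990 and positive replicate 3 in CFPAC-1 were the low samples. Its log2 fold changes were 0.08 (SE 0.30, adjusted p = 0.881) and 0.19 (SE 0.30, adjusted p = 0.657), with 95% intervals of -0.56 to 0.73 and -0.46 to 0.84 that span changes of either sign. *INSIG2*, its less sterol-responsive paralog, had log2 fold changes of 0.10 (adjusted p = 0.531) in SW1990 and 0.19 (adjusted p = 0.189) in CFPAC-1, with intervals of -0.13 to 0.34 and -0.04 to 0.43. For *SCAP*, the escort protein, the values were -0.09 (adjusted p = 0.772) and 0.21 (adjusted p = 0.386), and for *STARD4*, a sterol carrier, they were 0.20 (adjusted p = 0.553) and 0.10 (adjusted p = 0.753). *SCAP* had 10.7 ± 0.671 RPKM in the negative SW1990 samples and 10.1 ± 0.172 RPKM in the positive ones (SD, n = 3 each), the smallest relative spread of the 6 in positive SW1990 cells.

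The 9 fatty acid genes gave 3 rises in SW1990 (*ACACA*, *FASN* and *ELOVL6*) and 6 rises with 1 fall in CFPAC-1, with medians of 0.17 and 0.38. The shares in SW1990 were 33.33% higher and 0% lower (all genes 11.3% and 16.9%). In CFPAC-1 they were 66.67% and 11.11% (all genes 22.3% and 14.2%). The enzymes *ACACA*, *FASN* and *ELOVL6* form the core of palmitate synthesis and its elongation. *ACACA*, acetyl-CoA carboxylase (chromosome 17, 35441927 to 35766927), was at 20.1, 18.4 and 21.3 RPKM in the 3 negative SW1990 samples and 25.6, 28.8 and 29.9 RPKM in the 3 positive ones. In CFPAC-1, it reached 8.80, 8.44 and 9.53 RPKM in the 3 negative samples and 11.5, 12.7 and 9.60 RPKM in the 3 positive ones. Its log2 fold changes were 0.49 (SE 0.11, adjusted p = 0.00635) in SW1990 and 0.32 (SE 0.11, adjusted p = 0.0421) in CFPAC-1. *FASN*, fatty acid synthase (chromosome 17, 80036214 to 80056170), was at 48.4, 54.1 and 68.1 RPKM in the 3 negative SW1990 samples and 74.7, 95.5 and 102 RPKM in the 3 positive ones. The CFPAC-1 levels were 69.2, 69.1 and 74.2 RPKM in the 3 negative samples and 114, 109 and 77.5 RPKM in the 3 positive ones, with log2 fold changes of 0.67 (SE 0.17, adjusted p = 0.00949) and 0.48 (SE 0.17, adjusted p = 0.0414). *ELOVL6*, which lengthens palmitate to stearate (chromosome 4, 110967002 to 111120355), was at 33.7, 41.1 and 41.8 RPKM in the 3 negative SW1990 samples and 58.7, 75.5 and 65.96 RPKM in the 3 positive ones. In CFPAC-1, it reached 37.2, 34.3 and 33.5 RPKM in the 3 negative samples and 47.7, 41.5 and 47.8 RPKM in the 3 positive ones. Its log2 fold changes were 0.78 (SE 0.11, adjusted p = 0.000279) and 0.38 (SE 0.11, adjusted p = 0.0212). For these 3 genes, every positive sample lay above every negative sample of its line. The SW1990 calls held in all 22 alternatives judged by the adjusted p, though none of the 3 changes is over 2-fold. Those in CFPAC-1 were borderline. With centred samples and with quantile normalization, the adjusted p in CFPAC-1 was 0.147 and 0.190 for *ACACA*, 0.0977 and 0.115 for *FASN* and 0.0786 and 0.0908 for *ELOVL6*, and the log2 fold change of *ACACA* was 0.20 with quantile normalization. Without negative SW1990 replicate 1, positive SW1990 replicate 2 or 3, negative CFPAC-1 replicate 1, 2 or 3 or positive CFPAC-1 replicate 1 or 2 the adjusted p of *ACACA* ran from 0.0540 to 0.139. Without negative SW1990 replicate 2, positive SW1990 replicate 2, negative CFPAC-1 replicate 1, 2 or 3 or positive CFPAC-1 replicate 1 or 2 the adjusted p of *FASN* ran from 0.0506 to 0.146, and without negative CFPAC-1 replicate 2 or 3 or positive CFPAC-1 replicate 1 or 3 the adjusted p of *ELOVL6* ran from 0.0515 to 0.0738.

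*ME1*, the cytosolic malic enzyme that supplies NADPH (chromosome 6, 83920121 to 84140770), had the largest rise among the members. It was at 1.94, 1.40 and 1.30 RPKM in the 3 negative CFPAC-1 samples and 7.36, 6.56 and 4.39 RPKM in the 3 positive ones, so that the lowest positive sample was above the highest negative one. The log2 fold change was 1.90 (SE 0.23, adjusted p = 0.000121), which held in all 22 alternatives judged by the adjusted p. In SW1990, *ME1* was at 3.50, 4.84 and 3.81 RPKM in the 3 negative samples and 2.20, 3.08 and 2.99 RPKM in the 3 positive ones, with all positive samples below all negative ones and a log2 change of -0.54 (SE 0.23, adjusted p = 0.101) that did not pass the test. *SCD* (chromosome 10, 102106990 to 102124583) had the largest fall. It was at 1813, 2120 and 2160 RPKM in the 3 negative CFPAC-1 samples and 826, 1396 and 643 RPKM in the 3 positive ones. The negative samples lay within a narrow band, the positive samples were spread, with replicate 2 highest, and the groups did not overlap. The log2 fold change was -1.16 (SE 0.29, adjusted p = 0.00860) and held in all 22 alternatives judged by the adjusted p, from -1.47 to -0.91. In SW1990, *SCD* was at 244, 337 and 428 RPKM in the 3 negative samples and 245, 409.8 and 394 RPKM in the 3 positive ones, and replicate 1 was the low sample in both groups. Its log2 fold change in SW1990 was 0.06 (SE 0.29, adjusted p = 0.921). *SCD* has 1 annotated pseudogene.

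*ACLY*, which makes cytosolic acetyl-CoA from citrate (chromosome 17, 40023170 to 40086795), was at 30.1, 26.99 and 28.2 RPKM in the 3 negative CFPAC-1 samples and 57.5, 52.2 and 37.4 RPKM in the 3 positive ones, without overlap, which is a log2 change of 0.76 (SE 0.13, adjusted p = 0.00119) that held in all 22 alternatives judged by the adjusted p, while it is below 2-fold. In SW1990, *ACLY* was at 36.4, 40.3 and 40.5 RPKM in the 3 negative samples and 41.2, 44.5 and 46.3 RPKM in the 3 positive ones, again without overlap, with a log2 change of 0.17 (SE 0.13, adjusted p = 0.387). *ACSS2*, which makes acetyl-CoA from acetate, passed the test in neither line, with log2 fold changes of 0.27 (adjusted p = 0.516) in SW1990 and -0.44 (adjusted p = 0.221) in CFPAC-1. The desaturases of polyunsaturated fatty acids, *FADS1* and *FADS2*, lie next to each other on chromosome 11 with exons that overlap on opposite strands. *FADS1* was at 95.4, 87.5 and 79.9 RPKM in the 3 negative CFPAC-1 samples and 149, 141 and 107 RPKM in the 3 positive ones, without overlap, which gave a log2 change of 0.59 (SE 0.20, adjusted p = 0.0410), and without negative SW1990 replicate 2, negative CFPAC-1 replicate 1, 2 or 3 or positive CFPAC-1 replicate 1 or 2 its adjusted p ran from 0.0518 to 0.131. In SW1990 it was at 172 ± 40.8 and 155 ± 34.96 RPKM, which is a log2 change of -0.15 (adjusted p = 0.655). *FADS2* had log2 fold changes of -0.12 (adjusted p = 0.752) in SW1990 and 0.23 (adjusted p = 0.485) in CFPAC-1. *FEN1*, a replication gene whose exons overlap those of *FADS2* on the same strand, had log2 fold changes of 0.27 (adjusted p = 0.146) and 1.70 (adjusted p = 1.09e-05).

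The change between positive and negative cells differed between the lines for 7 of the 31 members, 5 of them with a higher value in SW1990 and 2 with a lower one (interaction contrast, limma, adjusted p under 0.05). Among all genes fitted, 9.16% had a higher and 17.8% a lower value in SW1990, against 16.13% and 6.45% of the members. Summed over both directions, the share of members was thus not above that of all genes. *ME1* had the largest difference, with a log2 fold change in SW1990 minus that in CFPAC-1 of -2.44 (SE 0.32, adjusted p = 0.000232). *SCD* followed with a difference of 1.22 (SE 0.41, adjusted p = 0.0445). The differences of *MVD* and *DHCR7* were 0.89 (SE 0.28, adjusted p = 0.0370) and 0.84 (SE 0.26, adjusted p = 0.0308), those of *SREBF1* and *FDFT1* were 0.80 (SE 0.27, adjusted p = 0.0428) and 0.73 (SE 0.24, adjusted p = 0.0427), and that of *ACLY* was -0.59 (SE 0.19, adjusted p = 0.0372). For *SREBF1*, the change within a line passed the test in neither SW1990 nor CFPAC-1. The other members that passed in 1 line alone (*PMVK*, *EBP*, *LSS*, *TM7SF2* and *FADS1*) did not differ between lines past the threshold, with adjusted p of 0.0601, 0.157, 0.422, 0.0880 and 0.0808. For the 5 genes that rose in both lines, the differences were -0.06 for *ACAT2* (95% interval -0.37 to 0.25), -0.05 for *MVK* (-0.53 to 0.43), 0.17 for *ACACA* (-0.18 to 0.52), 0.20 for *FASN* (-0.32 to 0.71) and 0.40 for *ELOVL6* (0.04 to 0.75, adjusted p = 0.0905). The *ME1* difference held in all 21 alternatives judged by the adjusted p, whereas the other 6 were lost when some single library was left out. The count of 5 was 10 without positive SW1990 replicate 1, 2 without positive CFPAC-1 replicate 3, 1 without negative SW1990 replicate 1, negative SW1990 replicate 2 or negative CFPAC-1 replicate 1, and 0 without positive SW1990 replicate 2 or 3, negative CFPAC-1 replicate 2 or 3 or positive CFPAC-1 replicate 1. The count of 2 was 1 without negative SW1990 replicate 2 or 3, positive SW1990 replicate 2 or 3, negative CFPAC-1 replicate 2 or 3 or positive CFPAC-1 replicate 1 or 2. The shares of all genes called without these samples were not counted. With each sample centred, the median difference of all genes went from -0.15 to 0.001, and the share of calls that were higher in SW1990 from 34% to 49.99%.

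In negative cells, 10 members were higher and 13 lower in SW1990 than in CFPAC-1 (all genes 40.7% and 28.2%), and in positive cells, 10 were higher and 9 lower (all genes 32.9% and 29.3%). The shares of members were 32.26% and 41.94% in negative cells and 32.26% and 29.03% in positive cells, so that the shares summed over both directions lay near those of all genes. These contrasts use the same samples as those within the lines. In both populations, *ACAT2*, *LSS*, *TM7SF2*, *NSDHL*, *SCAP*, *INSIG2* and *ACACA* were higher in SW1990, and *HMGCS1*, *MVK*, *PMVK*, *IDI1*, *EBP*, *INSIG1*, *SCD* and *FADS2* were higher in CFPAC-1. In negative cells the largest difference was that of *SCD*, with a log2 value of -2.63 (SE 0.29, adjusted p = 5.68e-06), and it was -1.41 (SE 0.29, adjusted p = 0.00110) in positive cells. Among the mevalonate genes *HMGCS1*, which had the largest difference of all members in positive cells, was at 32.4, 39.3 and 52.6 RPKM in negative SW1990 against 138, 143 and 146 RPKM in negative CFPAC-1 cells, a log2 difference of -1.80 (SE 0.21, adjusted p = 8.57e-06), and -1.50 (SE 0.21, adjusted p = 5.50e-05) in positive cells. *ACACA* lay the other way, at 20.1, 18.4 and 21.3 RPKM in negative SW1990 and 8.80, 8.44 and 9.53 RPKM in negative CFPAC-1 cells, with log2 differences of 1.15 (SE 0.11, adjusted p = 2.20e-06) in negative and 1.32 (SE 0.11, adjusted p = 1.06e-06) in positive cells. *INSIG1* and *INSIG2* had opposite orders, with log2 differences of -1.27 (adjusted p = 0.00218) and 0.50 (adjusted p = 0.00143) in negative cells. *SCAP* was higher in SW1990 by a log2 value of 0.95 (SE 0.17, adjusted p = 0.000392) in negative cells and 0.66 (SE 0.17, adjusted p = 0.00576) in positive cells. With each sample centred, the median of all genes in negative cells went from 0.19 to 0.006, and that of the members from -0.33 to -0.52, while *INSIG2* kept its call at a log2 difference of 0.31.

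*ME1* changed order between the populations, since it was higher in SW1990 among negative cells, with a log2 difference of 1.34 (SE 0.23, adjusted p = 0.000215), and lower in SW1990 among positive cells, at -1.10 (SE 0.23, adjusted p = 0.00115). *CYP51A1*, *HSD17B7*, *DHCR7*, *SREBF1*, *SREBF2*, *ACLY* and *FADS1* passed the test between lines in negative cells, and *FDFT1*, *ACSS2* and *ELOVL6* in positive cells. For *SREBF1* the log2 differences were -0.90 (adjusted p = 0.00101) in negative and -0.10 (adjusted p = 0.668) in positive cells, for *SREBF2* -0.86 (adjusted p = 0.00154) and -0.30 (adjusted p = 0.185), and for *DHCR7* -0.79 (adjusted p = 0.00209) and 0.05 (adjusted p = 0.813). *ACLY* was at 0.46 in negative cells and, with each sample centred, at 0.27 (adjusted p = 0.09996), so that its call was lost. *MVD*, *FDPS*, *SQLE*, *STARD4* and *FASN* did not pass the test in either population. *FASN* had log2 differences of -0.33 with a 95% interval of -0.69 to 0.03 in negative cells and -0.13 with an interval of -0.50 to 0.23 in positive cells. Of these calls, *IDI1* and *HSD17B7* in negative cells and *LSS* and *ACSS2* in positive cells were each lost without single libraries. Without negative SW1990 replicate 1 or 2 or negative CFPAC-1 replicate 2 or 3 the adjusted p of *IDI1* ran from 0.0536 to 0.0954, and without negative SW1990 replicate 1 or 2 or negative CFPAC-1 replicate 1, 2 or 3 the adjusted p of *HSD17B7* ran from 0.0649 to 0.138. Without positive SW1990 replicate 2 or 3 or positive CFPAC-1 replicate 2 or 3 the adjusted p of *LSS* ran from 0.0781 to 0.124, and without positive SW1990 replicate 2 or 3 or positive CFPAC-1 replicate 1 or 3 the adjusted p of *ACSS2* ran from 0.0657 to 0.109.

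**Figure D5:**
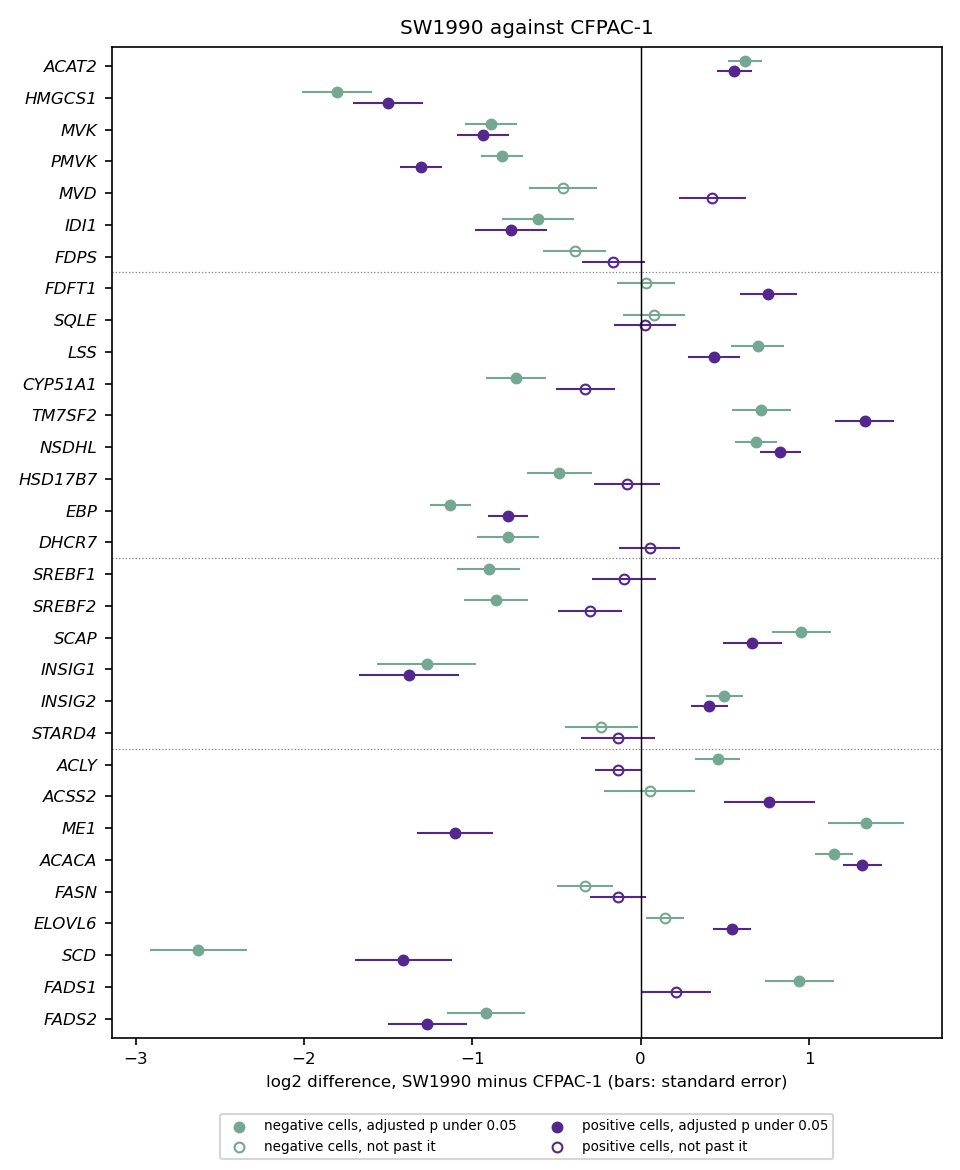
Fitted log2 difference of each member between SW1990 and CFPAC-1, with negative cells in green, positive cells in purple and bars for the standard error. Filled points have an adjusted p under 0.05 (limma), 23 of 31 in negative and 19 of 31 in positive cells, and *ME1* has opposite signs in the populations.

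Other genes of lipid metabolism were counted in 4 related lists. For comparison, 11.3% of all genes fitted were higher and 16.9% lower in positive SW1990 cells. In positive CFPAC-1 cells, 22.3% were higher and 14.2% lower. Of 24 further genes of sterol and fatty acid synthesis, 4 rose and 4 fell in positive SW1990 cells, and 9 rose in positive CFPAC-1 cells. The elongase gene *ELOVL7* rose in SW1990 by a log2 value of 1.91 (adjusted p = 2.00e-05). *SCD5*, another stearoyl-CoA desaturase, fell in SW1990 by a log2 value of 1.16 (adjusted p = 0.00535), and *ELOVL2* was also called lower, on 38 reads in the negative samples and 3 in the positive samples (ratio of reads per library read 0.0898, exact 95% interval 0.0177 to 0.283, counting error only). In CFPAC-1, the elongase genes *ELOVL4* and *ELOVL2* had the largest rises, 2.14 (adjusted p = 6.44e-05) and 1.98 (adjusted p = 0.00226), at levels of 1.78 ± 0.242 and 0.458 ± 0.286 RPKM in positive cells. Of 20 genes of sterol uptake, efflux and storage, 3 rose and 5 fell in SW1990, and 2 rose and 6 fell in CFPAC-1. The sterol efflux transporters *ABCA1* and *ABCG1* fell in SW1990, with log2 fold changes of -2.56 (adjusted p = 9.72e-07) and -1.90 (adjusted p = 0.00301), while *SOAT2*, which esterifies cholesterol, and *LIPA*, the lysosomal lipase, rose by 1.35 (adjusted p = 0.0167) and 0.68 (adjusted p = 0.00138). In CFPAC-1, *TMEM97* and the lipoprotein receptor *SCARB1* rose by 0.87 (adjusted p = 0.000690) and 0.73 (adjusted p = 0.000123), and *CYP27A1*, a sterol hydroxylase, and *MYLIP* fell by 1.63 (adjusted p = 0.00187) and 0.85 (adjusted p = 0.00783).

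Of 9 genes that process or degrade the SREBP proteins, 3 fell in positive SW1990 cells and 1 fell in positive CFPAC-1 cells. Among all genes fitted, 16.9% fell in positive SW1990 cells and 14.2% in positive CFPAC-1 cells. *PAQR3* and the protease gene *MBTPS1* had log2 fold changes of -0.48 (adjusted p = 0.0124) and -0.34 (adjusted p = 0.00741) in SW1990, and *FBXW7*, part of a ubiquitin ligase, had -0.85 (adjusted p = 0.000716) in CFPAC-1. Of 18 genes of fatty acid oxidation, 1 rose and 2 fell in SW1990, and 3 rose and 1 fell in CFPAC-1. The shares over all genes were 11.3% higher and 16.9% lower in SW1990, and 22.3% and 14.2% in CFPAC-1. *CPT2* rose by 0.57 (adjusted p = 0.000604) in SW1990, where *PPARGC1A* and *PPARA*, which switch oxidation genes on, had log2 fold changes of -2.35 (adjusted p = 2.06e-05) and -0.98 (adjusted p = 0.0262). *PPARGC1A* was at 0.873 ± 0.220 RPKM in negative SW1990 cells and 0.0873 ± 0.0118 RPKM in positive ones, below the pseudocount of 0.1. *ACADM* and *HADH* rose by 0.76 (adjusted p = 0.0103) and 0.74 (adjusted p = 0.000665) in CFPAC-1, where *PPARA* had -1.14 (adjusted p = 0.0105).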

How the data were processed

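RNA of 12 samples, 3 from each of 4 sorted groups, was sequenced and aligned by the authors to hg19 (GRCh37) with QuasR, after bcl2fastq per the submitters' notes, and the authors deposited 1 table of RPKM values per gene and sample. The annotation, strand setting and treatment of reads with several matches are not given in the sources used here. The paper and the labels differ on the library kit, culture medium and secondary antibody. Groups were taken from the labels. RPKM values were whole multiples of 1 read for 100.0% of 19654 genes (tolerance 0.01 reads), which gave library totals of 9969697 to 26159330 reads.

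Genes with a mean of at least 0.1 RPKM (16236 of 23346) were fitted as log2(RPKM + 0.1) with limma 3.58.1 in R 4.3.3, all 4 groups in 1 model with a variance trend, and p-values were adjusted over all genes by Benjamini-Hochberg, with a threshold of 0.05. The study's own count test was not used, and the test follows the unit of the deposited table. The fit was tested on simulated data with independent noise and with changes larger than any fitted for a member within a line. That test does not bear on smaller changes or on deviations that members share. Contrasts were positive against negative in each line, the difference of these changes, and SW1990 against CFPAC-1 in each population. Alternatives were pseudocounts of 1 and 0.01, no filter or a mean of 1 RPKM, centred samples, quantile normalization, the replicate block, no trend, each line alone, over 2-fold with an unadjusted p under 0.01, each sample left out, and voom on recovered reads, which was chosen after seeing the data. The members, the 4 lists of related lipid genes and the lists of ductal epithelium, mesenchymal, stromal fibroblast, leukocyte, endothelial, adipocyte, hepatocyte and proliferation markers were chosen with earlier results of these data known. All members are named by role, and of each related list the counts and up to 2 highest and 2 lowest called genes, of which 1 is not reported here. Gene positions and overlaps are from GENCODE 44 on GRCh37, and promoters from RefSeq on GRCh38.p14, a later build than that of the table. Python 3.11.15 with numpy 2.4.6, pandas 2.3.3 and matplotlib 3.10.9 was used for the rest.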

Additional observations from a re-analysis of the deposited data

Results flagged for a closer look

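For 7 members, the change between GCTM-5 positive and negative cells differed between SW1990 and CFPAC-1 by the interaction test (limma, adjusted p under 0.05), so these values may be worth a closer look. Members with a higher value in SW1990 were 16.13% (all genes 9.16%), and those with a lower value 6.45% (all genes 17.8%). Summed over both directions, the share of members was not above that of all genes. The log2 change in SW1990 minus that in CFPAC-1 was -2.44 for *ME1*, 1.22 for *SCD*, 0.89 for *MVD*, 0.84 for *DHCR7*, 0.80 for *SREBF1*, 0.73 for *FDFT1* and -0.59 for *ACLY*. Only the *ME1* difference held in all 21 alternatives judged by the adjusted p, and each of the others was lost when some single library was left out. In all 3 samples per group, *ME1* was lower in positive SW1990 cells and higher in positive CFPAC-1 cells than in the negative cells of the line. Its fall in SW1990 did not pass the test (limma, adjusted p = 0.101).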

How the results depend on the processing

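Of 1449 values of the 70 member calls under alternatives judged by the adjusted p, 1295 passed the test as before, 154 did not, and 0 turned direction. Requiring over 2-fold with an unadjusted p under 0.01 left 0 higher and 0 lower members in SW1990, 1 and 1 in CFPAC-1, 0 and 1 in the difference between lines, 2 and 4 between lines in negative cells, and 2 and 6 in positive cells. The *PMVK* call in SW1990 gave a count of 0 with no filter, centred samples, quantile normalization, no variance trend, each line fitted alone and voom on recovered reads. The 9 members higher in CFPAC-1 were 5 with centred samples and 5 with quantile normalization, and the 2 lower were 1 with no filter. The difference between lines (5 higher, 2 lower) gave 0 and 1 with no filter, 0 and 1 without a trend, and 1 lower with centred samples and with quantile normalization. With the replicate block, it gave 9 higher. The replicate block otherwise gave 12 higher and 1 lower (*ME1*) in SW1990 and 8 higher and 3 lower in CFPAC-1, but the correlations of same-numbered samples over all genes were not all above 0.1 ( 0.185, 0.016 and 0.116 in SW1990 and -0.02, 0.001 and -0.059 in CFPAC-1), and not every sample correlated best with its own number, so the numbers were not taken to pair samples. Over the members alone, the correlations of same-numbered samples were 0.589, -0.03 and 0.643 in SW1990 and 0.153, 0.213 and -0.35 in CFPAC-1. Negative SW1990 replicate 3 also reached 0.62 with positive replicate 2. Leaving out single samples gave 8 to 15 higher and 0 to 1 lower in SW1990, 4 to 10 and 1 to 3 in CFPAC-1, 0 to 10 and 1 to 3 in the difference, 10 to 10 and 11 to 15 in negative cells and 8 to 11 and 9 to 11 in positive cells. The shares of all genes called without single samples were not counted, so these ranges are not shown to be particular to the members. Beyond fewer samples or genes, the cause of these shifts was not tested. Depth limits *ME1* most, with 91 reads in its lowest sample.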
